A study of Rattus norvegicus with 45 samples.

Results

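Tgm2 (ENSRNOG00000012956), the gene for transglutaminase 2, was followed in the ventral tegmental area (VTA) of 44 male rats in 6 groups. It was 1 gene of the 32883 in the deposited table and 1 of the 22570 that entered the tests, and its row was taken by that identifier. In rn6 it lies on the minus strand of chromosome 3, from 154597167 to 154627257, and is annotated as protein coding. The rats were wild-type male Sprague-Dawley rats that self-administered saline or heroin for 10 d. On day 11 a viral vector was infused into the VTA. It carried GFP alone (empty vector, GFP in the sample labels), wild-type histone H3.3 (H3.3 WT) or H3.3 with alanine in place of glutamine 5 (H3.3Q5A), and every vector carried GFP. The tissue was taken after 30 d of abstinence, as punches of 2 mm guided by GFP fluorescence. A punch therefore held infected and uninfected cells of every type in the region. Of the saline rats, 7 received the empty vector, 7 H3.3 WT and 7 H3.3Q5A. Of the heroin rats, 8 received the empty vector, 7 H3.3 WT and 8 H3.3Q5A. Each library was polyA-selected RNA of a separate animal. Another saline library is H3.3Q5A by its title but H3.3 WT by its treatment label, and it was left out.

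Transglutaminase 2 is a calcium-dependent enzyme that joins the side chain of glutamine to an amine. The amine can be a lysine of another protein, which makes a crosslink, or a small monoamine such as dopamine or serotonin, which becomes attached to the glutamine. It is the enzyme reported to place dopamine on glutamine 5 of histone H3 (H3Q5dop), the mark that H3.3Q5A cannot carry. Outside the nucleus it also binds GTP, fibronectin and integrins and works in the extracellular matrix. In many tissues its gene is transcribed strongly by endothelial cells and is induced by retinoic acid, transforming growth factor beta and NF-kB. What was measured here was its mRNA in whole punches, not the protein or its activity. In such bulk samples, fewer cells of a type and less RNA per cell cannot be told apart.

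Tgm2 had 380 to 2085 reads per library, with a median of 921. Counting alone would give an error of 2.19% to 5.13% of the value, which is smaller than the differences between rats. The libraries held 24308953 to 71104049 reads on genes, and the group medians were lowest in saline H3.3Q5A (34513499) and highest in saline empty rats (55197003). Within groups, Tgm2 had no clear relation to log2 reads per library (Pearson r = -0.0582, permutation p = 0.717, 44 rats). The values below are the deposited variance-stabilized counts, where a difference of 1 is close to 1 unit of log2. Folds are taken from these values, which compress differences slightly at this level. RPM, reads per 1000000 reads on genes, are given beside them.

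In saline empty rats the lowest Tgm2 value was 9.18, the median 9.80 and the highest 10.11, and the mean was 9.75 ± 0.35 (SD, n = 7) or 19.4 ± 4.8 RPM. In saline H3.3 WT rats the lowest value was 9.54, the median 10.36 and the highest 10.69 (mean 10.29 ± 0.39, n = 7; 28.8 ± 7.2 RPM). In saline H3.3Q5A rats the lowest value was 9.51, the median 10.12 and the highest 10.50 (mean 10.07 ± 0.34, n = 7; 23.9 ± 5.9 RPM). Among saline rats the H3.3 WT group was thus the highest and the empty group the lowest, with ranges that overlapped. In heroin empty rats the lowest value was 8.72, the median 9.66 and the highest 10.13 (mean 9.62 ± 0.45, n = 8; 17.2 ± 5.3 RPM). In heroin H3.3 WT rats the lowest value was 8.98, the median 9.68 and the highest 10.14 (mean 9.57 ± 0.40, n = 7; 16.4 ± 4.8 RPM). In heroin H3.3Q5A rats the lowest value was 9.16, the median 10.20 and the highest 10.56 (mean 10.14 ± 0.44, n = 8; 26.5 ± 7.5 RPM). Here 7 of 8 heroin H3.3Q5A rats lay above 10, and the eighth, rat 24, was low.

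**Figure D1:**
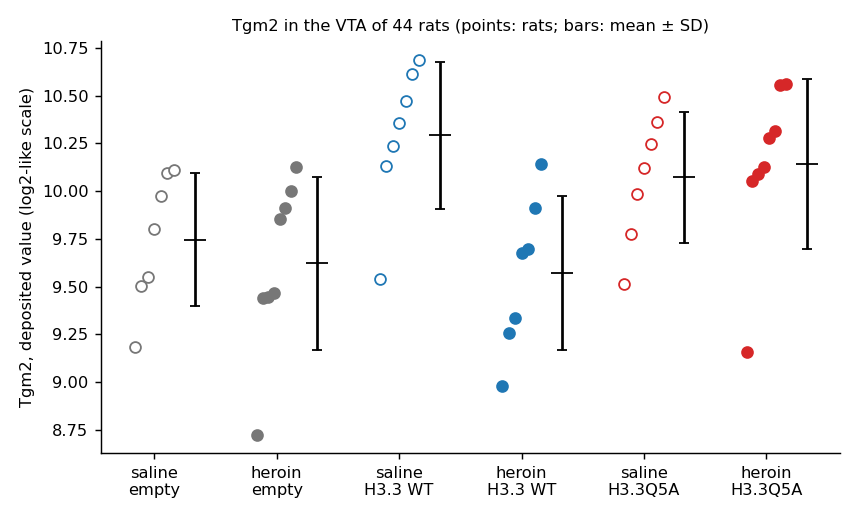
Tgm2 in each of the 44 rats, by group. The y axis is the deposited variance-stabilized value (log2-like scale), each point is a rat, and the bars give the group mean ± SD. Saline H3.3 WT (mean 10.29) and heroin H3.3Q5A (10.14) sit highest and heroin H3.3 WT (9.57) lowest, and the ranges of all groups overlap.

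By mean, saline rats with H3.3 WT came first, then heroin rats with H3.3Q5A, saline rats with H3.3Q5A, saline rats with the empty vector, heroin rats with the empty vector and, last, heroin rats with H3.3 WT. No neighbors in this order differed beyond their spread. The steps were 0.15, 0.071, 0.325, 0.124 and 0.050, with two-sided exact permutation p of 0.521, 0.738, 0.105, 0.577 and 0.821. The top and the bottom of the order differed by 0.721 (exact permutation p = 0.00816). That p makes no allowance for picking the extremes of the order. The pair is also the heroin comparison in H3.3 WT rats, where the exact permutation p was 0.0734 after adjustment over the 9 pairs. Over the 6 groups together, Tgm2 passed limma's F-test (adjusted p = 0.0325), as did 10.3% of the genes tested (2322). Group membership took up 35.0% of its variance, against 17.2% for the median gene.

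Pairs of groups were compared with limma across all 22570 genes. A gene was called differentially expressed (DEx) where its log2 fold change (log2FC) was beyond 0.2 and its p, adjusted by Benjamini-Hochberg over all genes, was under 0.05. Tgm2 was a DEx gene in 1 of 12 comparisons, the effect of heroin in H3.3 WT rats, and only just. For each comparison the share of all genes that were called is given as background.

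Heroin vs. saline was the first question, asked within each vector. In H3.3 WT rats Tgm2 fell by 0.72 on the deposited scale with heroin (SE 0.21, 95% interval -1.14 to -0.31, adjusted p = 0.042), a fold of 0.607. On the recovered reads, voom gave a log2FC of -0.81. All 7 heroin H3.3 WT rats lay below the saline H3.3 WT mean, 3 of them below every saline H3.3 WT rat, and the ranges overlapped. In this comparison 2.75% of all genes were called (620, of which 552 were lower), and 2.57% of genes had a lower p than Tgm2. Tgm2's exact permutation p was 0.00816, or 0.0734 after adjustment over the 9 pairs of groups, which misses the threshold. The log2FC stayed between -0.85 and -0.62 when any 1 rat was left out, and the adjusted p ran from 0.00673 to 0.126. The call was lost without saline H3.3 WT rat 4, 8, 44, 49 or 50 and without heroin H3.3 WT rat 3, 9 or 38, so it held in 6 of 14 such fits. The call was also lost under 5 of 11 settings: with the conflicting library counted as saline H3.3 WT (log2FC -0.65, adjusted p = 0.13), no gene filter (adjusted p = 0.079), only the groups compared (0.092), median centring (0.054) and voom (0.053).

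In empty vector rats the log2FC of heroin vs. saline was -0.12 (95% interval -0.53 to 0.28, adjusted p = 0.801, exact permutation p = 0.577), where 0.155% of all genes were called (35). That count moved widely with the processing, from 0 with the read total as covariate to 780 with median centring and 2322 with 3 residual factors, while Tgm2 was called under none of the 11 settings. In H3.3Q5A rats it was 0.07 (interval -0.33 to 0.47, adjusted p = 0.889, exact permutation p = 0.738), where 0.505% were called. The heroin and saline values overlapped along most of their range in both vectors, and each sign rested on 1 rat. Without heroin empty rat 2 the first log2FC was 0.0037, and without saline H3.3Q5A rat 33 the second was -0.02.

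Whether heroin acted differently under different vectors was tested as an interaction. The effect of heroin in H3.3Q5A rats minus that in H3.3 WT rats was 0.79 (SE 0.29, interval 0.22 to 1.37, unadjusted p = 0.00832), but the limma adjusted p was 0.0794, and 7.93% of all genes were called. Without heroin H3.3Q5A rat 24 this difference was 0.93 (adjusted p = 0.022) and without saline H3.3 WT rat 27 it was 0.92 (adjusted p = 0.02726), the fits with 1 rat left out in which it passed. The effect in H3.3Q5A minus that in empty rats was 0.20 (interval -0.37 to 0.76, adjusted p = 0.709), with 14% of all genes called. It was 0.07 without heroin empty rat 2 and with median centring, and 0.34 without heroin H3.3Q5A rat 24, never past the threshold. The effect in H3.3 WT minus that in empty rats was -0.60 (interval -1.17 to -0.02, unadjusted p = 0.043, adjusted p = 0.908). In that last test limma called 0 genes, or 0%, with 1137 at an unadjusted p under 0.05, and voom also called 0, while 1 and 3 residual factors gave 22 and 356 without Tgm2. As reported, no difference in the heroin effect between vectors passed for Tgm2. The difference between H3.3Q5A and H3.3 WT passed under 4 of 11 settings: 1 and 3 residual factors (adjusted p = 0.0217 and 0.000489), array weights (0.0452) and the conflicting library as saline H3.3Q5A (0.0492). The residual factors were drawn from deviations from the group means. They leave the log2FC as it is and lower its SE (0.24 and 0.17 here), so passing with them is not separate evidence.

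The second question was H3.3Q5A vs. its controls after heroin. Tgm2 in heroin H3.3Q5A rats had a log2FC of 0.52 vs. heroin empty rats (SE 0.19, interval 0.13 to 0.91), a fold of 1.44. It had a log2FC of 0.57 vs. heroin H3.3 WT rats (SE 0.20, interval 0.17 to 0.97), a fold of 1.49. The intervals lay above 0, but the limma adjusted p values of 0.109 and 0.0978 missed the threshold, where 3.21% and 2.71% of all genes were called. In each case 7 of 8 H3.3Q5A rats lay above the control mean, 4 lay above every control rat, and rat 24 lay below the mean. The exact permutation p values were 0.0364 and 0.0255, or 0.0818 and 0.0765 after adjustment over the 9 pairs. With 1 rat left out, the exact permutation p vs. empty ran from 0.00124 to 0.0727, and vs. H3.3 WT from 0.00233 to 0.0546. With median centring they were 0.0657 and 0.0398. Without rat 24 the log2FC was 0.66 and 0.71, and Tgm2 was called in each comparison (adjusted p = 0.0292 and 0.027). No other rat left out brought a call. These comparisons share the heroin H3.3Q5A rats, so they are not separate evidence. Heroin H3.3 WT vs. heroin empty gave -0.05 (interval -0.45 to 0.35, adjusted p = 0.978). Here limma called 0 genes, or 0%, with 1277 at an unadjusted p under 0.05, and voom called 0, while 3 residual factors gave 195 without Tgm2.

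After saline, H3.3 WT vs. empty had a log2FC of 0.55 (SE 0.21, interval 0.13 to 0.96, unadjusted p = 0.011, adjusted p = 0.203), a fold of 1.46. Of the 7 saline H3.3 WT rats, 6 lay above every saline empty rat, and rat 27 lay below the saline empty mean. The exact permutation p was 0.0186, or 0.0765 adjusted over the 9 pairs. The call was not reached in any fit with 1 rat left out, where the log2FC ran from 0.45 to 0.67. limma called 0 genes here, or 0%, although 3788 had an unadjusted p under 0.05, and voom called 0. With 1 and 3 residual factors 320 and 1927 genes were called, and with 3 factors Tgm2 was among them. Saline H3.3Q5A vs. saline empty was 0.33 (interval -0.09 to 0.74, adjusted p = 0.345), with 4.94% of genes called, and 4 of 7 H3.3Q5A rats lay above every empty rat. Saline H3.3Q5A vs. saline H3.3 WT was -0.22 (interval -0.63 to 0.19, adjusted p = 0.736), with 0.00886% of genes called (2).

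**Figure D2:**
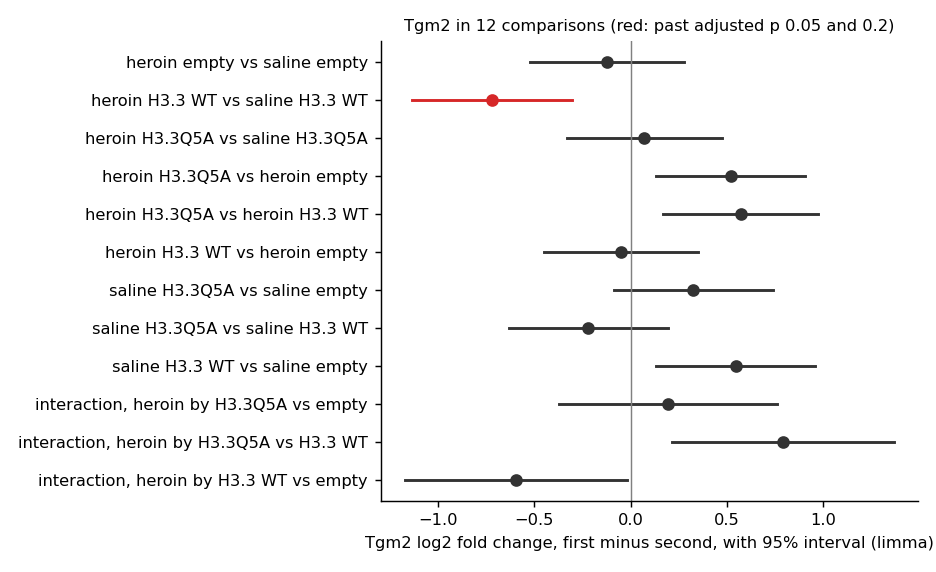
Tgm2 log2FC in the 9 pairs of groups and the 3 interactions, with 95% intervals from limma. The x axis is the difference of deposited values, first group minus second, and red marks the DEx call. The interval of the heroin effect in H3.3 WT rats (-1.14 to -0.31) lies below 0, and those of heroin H3.3Q5A vs. its controls lie above 0 without passing adjustment over all genes.

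**Figure D3:**
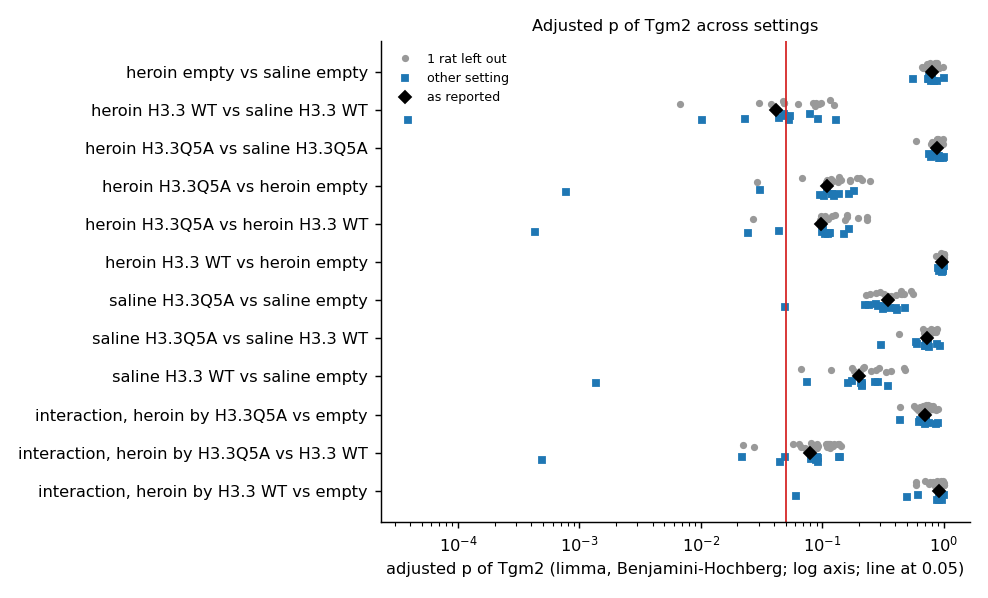
Adjusted p of Tgm2 in each comparison as reported (diamond), with 1 rat left out (gray) and under the other settings (blue), on a log axis with a line at 0.05. For the heroin effect in H3.3 WT rats the points lie on both sides of the line, and for the heroin effect in empty and in H3.3Q5A rats all lie above it.

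Tgm2 was a variable gene within groups. Its within-group SD was 0.40, larger than that of 96.2% of the 1360 genes whose mean deposited value lay within 0.25 of its own (median SD 0.14). These genes have similar read numbers. The lowest rats within their groups were heroin H3.3Q5A rat 24, 0.99 below its group mean, heroin empty rat 2, 0.90 below, and saline H3.3 WT rat 27, 0.75 below. The highest was heroin H3.3 WT rat 11, 0.57 above.

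That spread ran with markers of blood vessel cells. The endothelial markers that could be named were 4 of 12 on the list: Cdh5 (VE-cadherin, the adhesion molecule of endothelial junctions), Kdr (a receptor for vascular endothelial growth factor), Esam (an endothelial adhesion molecule) and Vwf (von Willebrand factor). Over deviations from the group means in 44 rats, Tgm2 and the mean of these markers had a Pearson r of 0.863 (permutation p = 1e-05, the smallest that 100000 resamples can give, 7e-05 after adjustment over 7 scores) and a Spearman rho of 0.877 (p = 1e-05). The r was positive within each of the 6 groups and 0.846 without the 2 rats farthest from the median of the score. Rats 24, 2 and 27, the low rats named above, were also 0.45, 0.34 and 0.34 below their group means in the endothelial score. All 4 markers were detected in every group.

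**Figure D4:**
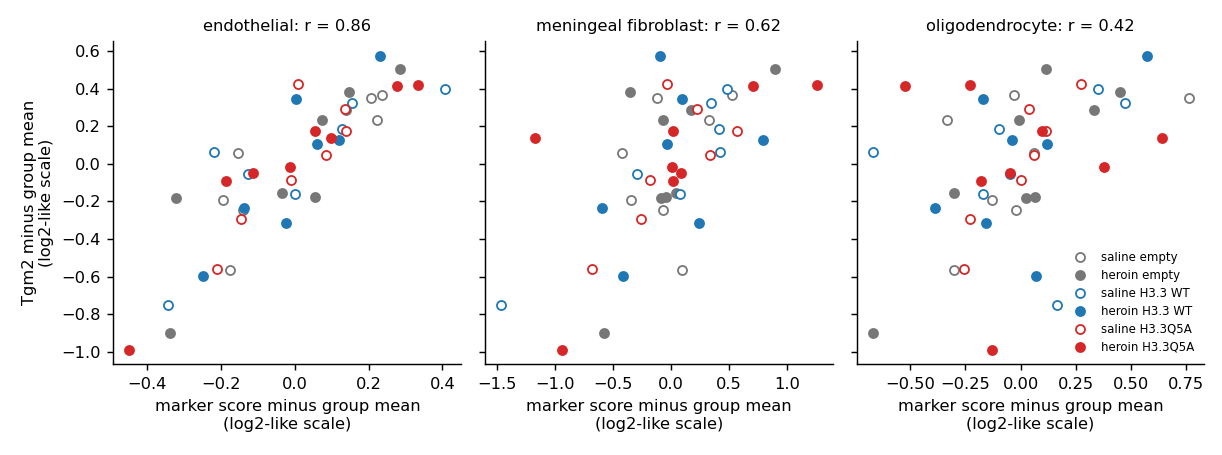
Tgm2 (y axis) against the mean of the named endothelial, meningeal fibroblast and oligodendrocyte markers (x axes), each as the deviation of a rat from its group mean on the log2-like scale. Each point is 1 of 44 rats, colored by group. The endothelial panel is the tightest (r = 0.863), with meningeal fibroblast at 0.622 and oligodendrocyte at 0.42.

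Other cell type scores had weaker relations to Tgm2 over the same 44 rats. For 3 of 8 meningeal fibroblast markers (Col1a1, Foxc2 and Mgp) r was 0.622 (permutation p = 3e-05, adjusted 0.000105; rho 0.554, p = 0.00026) and 0.555 without the 2 farthest rats. For 4 of 10 mural markers (Acta2, Tagln, Notch3 and Cnn1) r was 0.476 (permutation p = 0.00224, adjusted 0.00392; rho 0.476, p = 0.0019). For 2 of 11 astrocyte markers (Aldoc and Ntsr2) r was 0.495 (permutation p = 0.00125, adjusted 0.00292; rho 0.545, p = 0.00037). For 8 of 12 oligodendrocyte markers r was 0.42 (permutation p = 0.00857, adjusted 0.012; rho 0.401, p = 0.0106). These 3 relations held without the 2 farthest rats (r = 0.486, 0.452 and 0.437). Their permutation p values test against no relation, not against other genes. For 11300 single genes with a mean value at or above the median, the 5th and 95th percentiles of r with Tgm2 were -0.472 and 0.486. The mural and oligodendrocyte r over 44 rats lay inside that range, and the astrocyte r just above it. For 2 of 6 pituitary markers (Tshb and Cga, hormone subunits from outside the VTA) r was -0.275 (permutation p = 0.072, adjusted 0.084; rho -0.324, p = 0.0347), and -0.17 without the 2 farthest rats. The lists share the libraries and are related to each other. Of the neuron, dopamine neuron and ependymal lists no marker could be named, so the VTA label was not checked against its defining neurons here.

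Levels of the vascular markers also varied between groups. The summed endothelial markers ran from 141 to 242 RPM in saline H3.3 WT rats and from 113 to 175 in heroin H3.3 WT rats. They ran from 137 to 235 in heroin H3.3Q5A rats and from 112 to 189 in heroin empty rats. The range was 123 to 188 in saline empty rats and 146 to 187 in saline H3.3Q5A rats. The mean endothelial score was highest in saline H3.3 WT (10.69 ± 0.26, SD, n = 7) and heroin H3.3Q5A rats (10.66 ± 0.25, n = 8), which were also the groups with the most Tgm2. It was lowest in saline empty (10.33 ± 0.21, n = 7), heroin empty (10.35 ± 0.22, n = 8) and H3.3 WT heroin rats (10.41 ± 0.16, n = 7). With heroin in H3.3 WT rats, 1 of the 4 endothelial markers was called lower (Cdh5, log2FC -0.52, adjusted p = 0.0426), and the list's median log2FC was -0.27 against 0.001 over all genes. In the same comparison, where 2.75% of all genes were called, 3 of 4 mural markers were called lower, among them Acta2, smooth muscle actin (log2FC -1.70), and Tagln, transgelin (log2FC -1.80). All 3 meningeal fibroblast markers were called lower too, Col1a1, a chain of type I collagen, by the most (log2FC -1.91). The summed mural markers ran from 103 to 429 RPM in saline and 58.7 to 142 RPM in heroin rats with H3.3 WT, and the summed meningeal fibroblast markers from 41.2 to 180 and 20.7 to 67.4 RPM. In heroin H3.3Q5A vs. heroin empty rats 3.21% of all genes were called. Cdh5 (log2FC 0.52) and Kdr (log2FC 0.43) were called higher there, as were all 3 meningeal fibroblast markers. These last ran from 39.9 to 279 RPM in the H3.3Q5A and 27.2 to 103 RPM in the empty group, and the mural markers, none of them called, from 66.6 to 269 and 79.4 to 187 RPM. The 2 pituitary markers, summed, ran from 1.0 to 34.6 RPM in saline H3.3 WT and 0.35 to 1.79 RPM in heroin H3.3 WT rats. Their median log2FC there was -1.49, with 0 of 2 called. No named marker of these lists was at 0. Only genes from a set ordered by a result of these samples could be named. The share of all genes is therefore not a matched background for these marker counts. The part of blood vessel, meningeal and pituitary cells in the Tgm2 differences was not tested.

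Other members of the transglutaminase family, such as Tgm1, Tgm3 and the factor XIII subunit F13a1, could not be named in these data, and the same holds for the H3.3 genes H3f3a and H3f3b and for the genes of dopamine and serotonin supply. These genes were not analysed here. What follows gives the genes of Tgm2's known surroundings that had a name. They too are a selected set, so the shares of all genes beside their counts are not a matched background.

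Of 12 partners of transglutaminase 2 at the cell surface and in the matrix, 5 were named. Fn1, which encodes fibronectin, the matrix protein it binds, had an r of 0.712 with Tgm2 within groups. Fn1 fell with heroin in H3.3 WT rats (log2FC -0.62 ± 0.18, SE, adjusted p = 0.0419). It was higher in heroin H3.3Q5A rats than in heroin empty (log2FC 0.56, adjusted p = 0.0468) and heroin H3.3 WT rats (log2FC 0.67, adjusted p = 0.0243). Its heroin effect differed between H3.3Q5A and H3.3 WT rats (interaction 0.93, adjusted p = 0.0137). In that interaction, where 7.93% of all genes were called, 3 of 4 mural (list median 2.21) and all 3 meningeal fibroblast markers (median 2.17) were called higher. So were 1 of 4 endothelial markers (median 0.43) and 1 of 2 pituitary markers (median 2.14), while 5 of 8 oligodendrocyte markers were called lower (median -0.82). The part of these cells in the Fn1 and Tgm2 values was not tested. Pdgfrb, the platelet-derived growth factor receptor of mural cells, fell with heroin in H3.3 WT rats (log2FC -0.38, adjusted p = 0.0435), and its r with Tgm2 was 0.435. Itgb5, an integrin chain, was called higher in saline H3.3Q5A vs. saline empty rats (log2FC 0.36, adjusted p = 0.0155; r with Tgm2 0.5). Lrp1, an endocytic receptor, and Mfge8, a secreted bridging protein, were called in none of the 12 comparisons (r with Tgm2 0.112 and 0.273). Over the list, 2 of 5 were called lower with heroin in H3.3 WT rats (2.75% of all genes called). In each comparison of heroin H3.3Q5A vs. its controls 1 of 5 was called higher (3.21% of all genes called vs. empty and 2.71% vs. H3.3 WT). In the interaction of heroin with H3.3Q5A vs. H3.3 WT, 2 of 5 were called higher (7.93% of all genes called).

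Of 17 genes of the retinoic acid pathway, 3 were named. Rara, a retinoic acid receptor, fell with heroin in H3.3 WT rats (log2FC -0.45, adjusted p = 0.027), although its r with Tgm2 within groups was 0.171. Rxra, its partner receptor, was higher in saline H3.3Q5A than saline empty rats (log2FC 0.33, adjusted p = 0.046). Rdh10, which makes the precursor of retinoic acid, was lower there (log2FC -0.26, adjusted p = 0.0218). The list did not move one way. In the comparison in which Tgm2 was called, 1 of 3 was called lower (2.75% of all genes called). In saline H3.3Q5A vs. saline empty rats 1 was called higher and 1 lower (4.94% of all genes called). In the interactions of heroin with H3.3Q5A vs. empty and vs. H3.3 WT, 1 of 3 was called higher each time (14% and 7.93% of all genes called).

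Of 19 genes of NF-kB, TGF-beta and cytokine signaling, 5 were named. In the comparisons of heroin with saline and among heroin rats 0 of 5 were called by limma, a count near the shares of all genes called there (0% to 3.21%). Tgfbr2, a receptor for TGF-beta, had an r of 0.708 with Tgm2 and was higher in saline H3.3Q5A than saline empty rats (log2FC 0.39, adjusted p = 0.0332). Smad7, an inhibitor of the same pathway, was higher there too (log2FC 0.31, adjusted p = 0.0407; r with Tgm2 0.438). Tgfb3, a ligand, had an r of 0.459, Relb, an NF-kB subunit, 0.273, and Nfkbia, an NF-kB inhibitor, 0.233. In the same comparison of saline rats 4.94% of all genes were called. Markers called higher there were 5 of 8 oligodendrocyte markers (such as Mbp, myelin basic protein, log2FC 0.71), the astrocyte marker Aldoc (log2FC 0.28), the microglial marker Cx3cr1 (log2FC 0.49) and the endothelial marker Esam (log2FC 0.31). The part of these cells in the list genes was not tested.

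Of 21 genes for H3.3 and for methylation of lysine 4 of histone H3, the residue beside glutamine 5, 3 were named. Kdm5b, a demethylase of lysine 4, had the opposite relation to Tgm2, with an r of -0.512. It was lower in saline H3.3Q5A than saline empty rats (log2FC -0.24, adjusted p = 0.0164) and higher in heroin H3.3Q5A than saline H3.3Q5A rats (log2FC 0.26, adjusted p = 0.0328). In these comparisons 4.94% and 0.505% of all genes were called. Over the list, 1 of 3 was called higher in the interaction of heroin with H3.3Q5A vs. empty (14% of all genes called). The same count held vs. H3.3 WT (7.93% of all genes called). Kdm5a, a related demethylase, and Rbbp5, a subunit of the methyltransferase complexes, were not called in any of the 12 comparisons (r with Tgm2 -0.175 and -0.389).

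**Figure D5:**
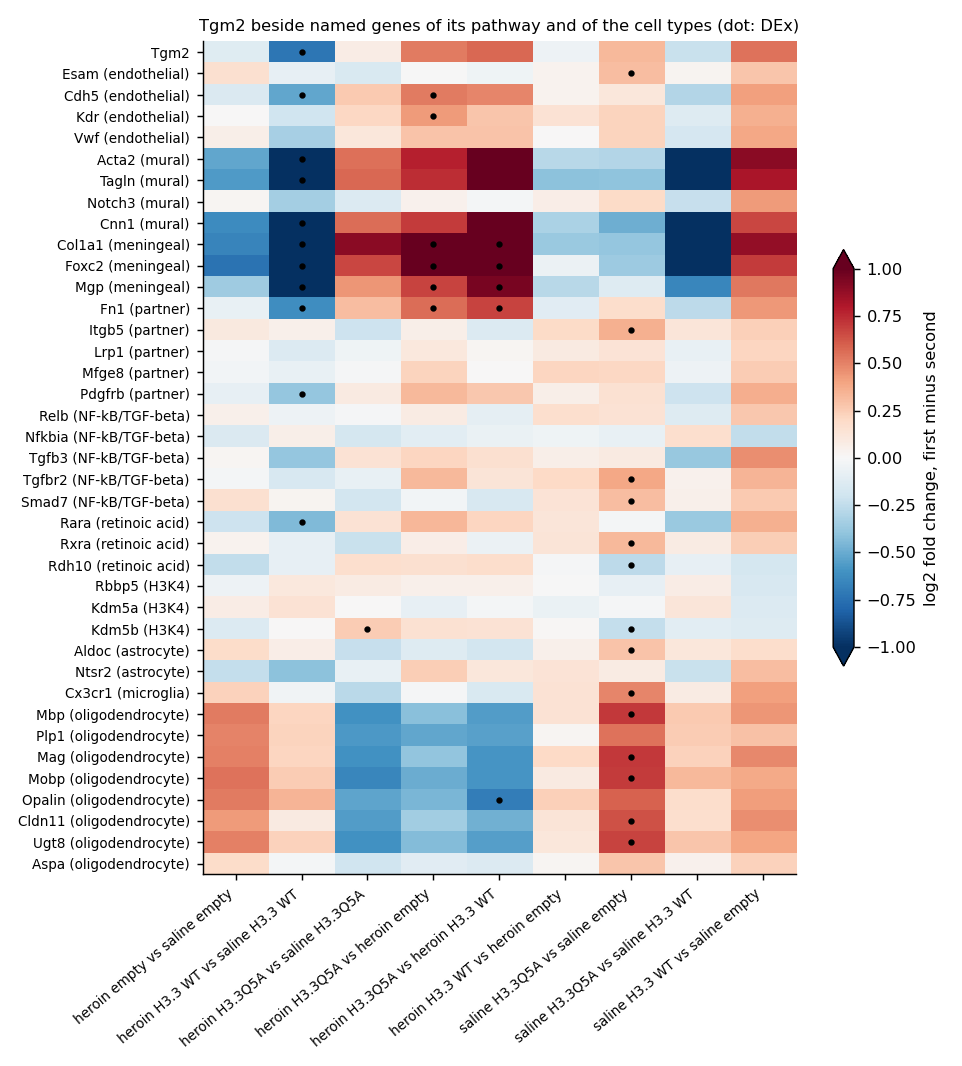
log2FC of Tgm2 (top row) and of the named genes of its lists and of the cell type markers in the 9 pairs of groups. Color gives the log2FC, first group minus second, cut at 1 in each direction, and a dot marks a DEx gene. For the heroin effect in H3.3 WT rats, Tgm2, Cdh5, Fn1, Pdgfrb, Rara and 6 mural and meningeal fibroblast markers carry a dot, all of them lower.

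The 10 named genes most like Tgm2 over deviations from the group means in 44 rats were, by Pearson r, Masp1 (0.808), Cdh5 (0.807), Slc13a3 (0.772), Nid2 (0.77), Rbms2 (0.767), Afap1 (0.766), Rassf2 (0.765), Wbp1l (0.755), Ctdsp1 (0.751) and Txnip (0.749). They were taken from 1760 named genes with a mean value at or above the median. Masp1 encodes a protease of the lectin pathway of complement, Slc13a3 a transporter of dicarboxylates and Nid2 the basement membrane protein nidogen 2. Among all 11300 genes of that level, named or not, the highest r were also those of Masp1 and Cdh5. For orientation, the r of these 11300 genes had a median of -0.00611, with 5% below -0.472 and 5% above 0.486, and 41 were above 0.7. Of those 41, 26 were among the 1760 named genes, a selected set. Points share the libraries, so these values describe the set of rats and have no p.

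Of these 10 genes, 3 were DEx genes where Tgm2 was (2.75% of all genes called), with lower levels in heroin H3.3 WT than saline H3.3 WT rats. They were Cdh5, Nid2 (log2FC -0.61, adjusted p = 0.0187) and Slc13a3 (log2FC -0.93, adjusted p = 0.0176). The same 3 were higher in heroin H3.3Q5A than heroin empty rats (Nid2 0.48, adjusted p = 0.0491; Slc13a3 0.74, adjusted p = 0.0447). Masp1, the closest in r, was near 0 in the first comparison (log2FC -0.09, adjusted p = 0.696), so likeness within groups did not carry over to the group difference for every gene. The 5 named genes that ran most against Tgm2 were Hook1 (r = -0.696), Mycbp2 (-0.685), Tubgcp4 (-0.676), Zfp263 (-0.675) and Bbs4 (-0.671).

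On chromosome 3 of rn6, the nearest named genes were Vstm2l (154395186 to 154424625) and Samhd1 (153210828 to 153250641) on the lower side, and Lbp (154786214 to 154813464) and Ppp1r16b (155160480 to 155262941) on the upper side. Other genes lie between them without a name here. Lbp, which encodes a binding protein for lipopolysaccharide, had an r of 0.66 with Tgm2 within groups and a log2FC of -0.74 with heroin in H3.3 WT rats (adjusted p = 0.0649). Vstm2l had an r of 0.049, Samhd1 -0.357 and Ppp1r16b 0.461.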

How the data were processed

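PolyA-selected VTA libraries were prepared with the TruSeq v2 kit, and reads from 2 flow cells were joined for each rat. The authors used HISAT2 2.1.0 for alignment to rn6, removed multi-aligned reads, counted with featureCounts 2.0.1 on Ensembl 90 genes and normalized with DESeq2 2.11.40.6 (versions from the submitters' processing notes). What they deposited, for 32883 genes and 45 libraries, are counts after a variance-stabilizing transformation, which behave like log2 values, with 5.73 standing for 0 reads. The authors used RUVr before their own tests, and the deposited values carry no such factor. Whether counting used strand is not given in the sources used here, so reads of an overlapping antisense gene may have counted as well. Inverting the transformation gave whole reads for 100% of values in every library (within 0.01), from which read totals and RPM (reads per 1000000 reads on genes) were taken.

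Values were fitted with limma 3.58.1 in R 4.3.3 (all 6 groups, intensity trend) on the 22570 genes that exceeded 5.73 in 7 or more libraries. DEx genes passed the study's thresholds, a log2FC beyond 0.2 and a Benjamini-Hochberg adjusted p under 0.05. limma was used in place of a count test because the deposited unit is not counts. Single differences were tested with two-sided exact permutation tests, and correlations with 100000 permutations within groups, in Python 3.11.15 with scipy 1.17.1. No batch is given by the labels. Among 140 pairs of libraries of the same group none was a duplicate (lowest chi-square per gene 11.7). The scripts were tested on simulated data.

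Tgm2, the gene lists and the alternatives were chosen with earlier results of these data known. Genes named were Tgm2, the listed genes that could be named, the 10 most like it and 5 least like it, and 2 named neighbors per side. Names and coordinates come from the 1998 readable rows of the study's gene table, which is ordered by a result of these samples, so the named genes are a selected set. That table's values were not used. The design text calls the vector lentiviral and the methods AAV2. No RefSeq sequence of Tgm2 was used here. Alternatives were no gene filter, median centring, quantile normalization, 1 or 3 residual factors, only the groups compared, array weights, read total as covariate, voom on the recovered reads, the conflicting library read each way, leaving out each rat and rank correlation.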

Additional observations from a re-analysis of the deposited data

Results flagged for a closer look

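Within each group, Tgm2 and the cell type scores were examined for a rat that stood apart from the others by Dixon's criterion. Of 42 groups of values, 6 held such a rat, where chance alone would give 2.1. Heroin H3.3Q5A rat 24 had a Tgm2 value of 9.16, while the other 7 rats of its group lay between 10.1 and 10.6. Without this rat, Tgm2 was a DEx gene against both heroin control groups. The same rat had the lowest endothelial score relative to its group of all 44 rats.

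The meningeal fibroblast score of saline H3.3 WT rat 27 was 8.86, with the other rats of that group from 10 to 10.8, and this was also the saline H3.3 WT rat with the least Tgm2. The mural score of heroin empty rat 5 was 10.5 (others 9.25 to 9.82), and this rat had the most Tgm2 of its group. The oligodendrocyte score of saline empty rat 18 was 15.3 (others 14.2 to 14.6). The pituitary score was 8.83 in saline H3.3Q5A rat 31 (others 6.22 to 6.95) and 9.08 in heroin empty rat 21 (others 6.28 to 7.26). Dixon's criterion flagged no pituitary score in saline empty rats, where this score was most spread (SD 2.08) and its markers reached 235 RPM. Saline empty rats 15 and 10 lay 3.76 and 1.76 above their group mean in that score. Rat 15 also had the least Tgm2 of its group (9.18).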

How the results depend on the processing

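Of 132 Tgm2 values (12 comparisons under 11 settings), 116 kept direction and side of the threshold, 5 lost the call, 11 gained one and 0 changed direction. The heroin effect in H3.3 WT rats lost its call with no gene filter and with only the groups compared (log2FC -0.7205 in each, adjusted p = 0.07891 and 0.09187), median centring (-0.657), voom (-0.811) and the conflicting library as saline H3.3 WT (-0.6451). Calls were gained with 1 and 3 residual factors, which leave the log2FC as it is and lower its SE, for H3.3Q5A vs. empty after heroin (0.5206), H3.3Q5A vs. H3.3 WT after heroin (0.5709) and the interaction of heroin with H3.3Q5A vs. H3.3 WT (0.7912). With 3 factors they were also gained after saline for H3.3Q5A vs. empty (0.3254) and H3.3 WT vs. empty (0.5457). Array weights gave calls for H3.3Q5A vs. H3.3 WT after heroin (0.6062) and for that interaction (0.8238), as did the conflicting library as saline H3.3Q5A for the latter (0.839). Apart from the factors, the cause was not tested. With 1 rat left out, 202 of 220 values kept direction and side, 8 lost the call, 4 gained one and 6 changed sign. The log2FC of heroin ran from -0.2185 to 0.003704 in empty, -0.8457 to -0.6214 in H3.3 WT and -0.02266 to 0.2117 in H3.3Q5A rats. After heroin it ran from 0.3924 to 0.6616 for H3.3Q5A vs. empty, 0.4718 to 0.7119 for H3.3Q5A vs. H3.3 WT and -0.1785 to 0.04879 for H3.3 WT vs. empty, and for the interaction of heroin with H3.3Q5A vs. H3.3 WT from 0.6921 to 0.9322. Exact permutation p values ran from 0.31 to 0.984 for heroin in empty rats, 0.191 to 0.963 for heroin in H3.3Q5A rats and 0.362 to 1 for H3.3 WT vs. empty after heroin. They ran from 0.00124 to 0.0727 for H3.3Q5A vs. empty after heroin (above 0.05 in 8 of 16 fits) and 0.00233 to 0.0546 for H3.3Q5A vs. H3.3 WT after heroin (2 of 15). Of 1584 counts of called list genes under the other settings, 217 moved by over 1.5 times. The mean library median of a group lay between -0.0453 and 0.0378 of the overall mean, an offset that median centring removes. No paired analysis was possible because each library came from a separate animal and no label pairs rats across groups. Counts of called genes over the whole table also moved by over 1.5 times. Across the 11 settings they ran from 0 to 2322 for heroin in empty rats (35 as reported), 183 to 1862 in H3.3 WT (620) and 0 to 2412 in H3.3Q5A rats (114). After heroin they ran from 101 to 2388 for H3.3Q5A vs. empty (724), 0 to 2190 for H3.3Q5A vs. H3.3 WT (611) and 0 to 195 for H3.3 WT vs. empty (0). After saline they ran from 618 to 3146 (1116), 0 to 1292 (2) and 0 to 1927 (0) for H3.3Q5A vs. empty, H3.3Q5A vs. H3.3 WT and H3.3 WT vs. empty. For the interactions they ran from 2254 to 5327 for H3.3Q5A vs. empty (3149), 1185 to 3760 for H3.3Q5A vs. H3.3 WT (1790) and 0 to 356 for H3.3 WT vs. empty (0).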
